A study of Chlamydomonas reinhardtii with 4 samples.

Results

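H3K27ac peaks of wild-type Chlamydomonas reinhardtii, a haploid unicellular green alga, were compared between the 2 mating types. The mt+ (mating type plus) library came from strain CC-5155 and the mt− (mating type minus) library from strain CC-5325, both labelled WT and vegetative, with 1 library each. These are 2 of the 4 libraries of the series. The other 2 are DNMT1 knockouts of these strains (dnmt1 mt+ and dnmt1 mt−), named for a DNA cytosine methyltransferase. They serve below to look up peaks of the WT lists and, at the end, as comparisons set beside the WT pair. Cells grew in Tris-acetate-phosphate medium under continuous light, and the chromatin was precipitated with an antibody against H3 acetylated at lysine 27. Strain and mating type changed together, so they cannot be told apart, and with 1 library a side every difference is a description of 2 libraries and was not tested. The labels do not say whether a strain is 1 clone.

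Mating type in this alga is set by alternative haplotypes of a locus on chromosome 6, where recombination between mt+ and mt− is suppressed. The mt− haplotype carries MID, the regulator that sets the minus programme, and the mt+ haplotype carries FUS1, which gametes of mt+ need for fusion. H3K27ac is known as a mark of active promoters and enhancers. The peak lists use the chromosome names chromosome_01 to chromosome_17, numbered contigs, and a separate sequence named mating_type_plus. The genome build is not given in the sources used here, no annotation of it was used, and peaks are therefore given by position without gene names.

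A partner is a peak of the other WT list that overlaps by at least 1 bp. The WT mt+ list held 14990 peaks over 13.03 Mb and the WT mt− list 15065 peaks over 13.22 Mb, with median widths of 814 and 826 bp. The lists hold no read counts, so depth is unknown. A peak without a partner therefore means that the other library had no peak past the authors' threshold there, not that the mark was absent. Whether chromosome 6 and mating_type_plus carry alternative haplotypes of the mating type locus in this assembly was not checked. Where a strain lacks a sequence or its reads map elsewhere, a missing or narrower peak cannot be told apart from a lower mark. On mating_type_plus the mt+ libraries had 26 peaks (WT) and 22 peaks (dnmt1), and each mt− library had 8. The WT peaks among these are counted again in the results below, so they are not an independent check of the mating type labels.

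The lists were nearly the same over most of the genome, and the peaks without a partner took a larger share on mating_type_plus for WT mt+ and on chromosome 6 for WT mt− than over the whole lists. Of the WT mt+ peaks, 251 had no WT mt− partner (1.67% of the list), and of the WT mt− peaks, 325 had no WT mt+ partner (2.16%). On mating_type_plus 18 of the 26 WT mt+ peaks were unpartnered (69.2%, exact 95% binomial interval 48.2 to 85.7, which covers counting error only). None of the 8 WT mt− peaks there was, a count of 0 whose exact 95% interval reaches 36.9%. On chromosome 6 the sides were reversed, with 96 of 1319 WT mt− peaks unpartnered (7.28%, 5.93 to 8.82) and 24 of 1248 WT mt+ peaks (1.92%, 1.24 to 2.85). On all other sequences the shares were close, at 209 of 13716 (1.52%, 1.33 to 1.74) for WT mt+ and 229 of 13738 (1.67%, 1.46 to 1.90) for WT mt−.

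**Figure D1:**
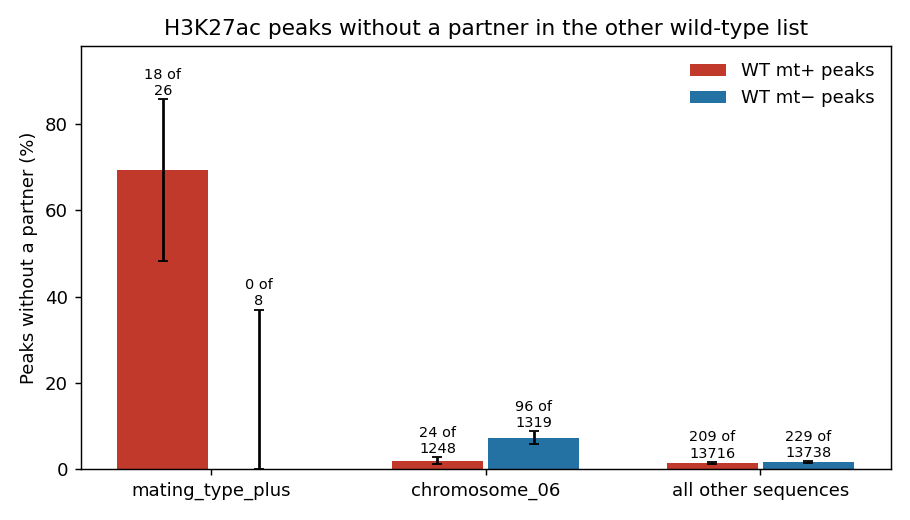
Share of peaks without a partner in the other wild-type list (%), by sequence class. Bars are 1 library each, whiskers are exact 95% binomial intervals, and the counts stand above; WT mt+ leads on mating_type_plus with 69.2% and WT mt− on chromosome 6 with 7.28%.

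The mt+ peaks of mating_type_plus without a partner spanned nearly the whole range of strength in their list. Their fold enrichment at the summit, the authors' value per peak, had a median of 5.04 with quartiles of 2.93 and 5.64, beside 5.65 over the whole WT mt+ list. The rank of a peak is given here as the percentile of its −log10 q within its own list, from 0 for the weakest to 100. The 18 had a median rank of 41.9, and 6 of them stood above the middle of the list. The strongest lay at 124792 to 125765 with a fold enrichment of 7.51 and a rank of 91.9. It was followed by 131686 to 132514 (7.06), 161302 to 161865 (6.32), 146585 to 147809 (6.17) and 364723 to 365338 (5.68).

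Next in order of enrichment were the peaks at 57450 to 58165 (5.51), 4961 to 5498 (5.498), 158343 to 158987 (5.05), 59650 to 60834 (5.05), 278305 to 279266 (5.02) and 238913 to 239553 (4.39). The other 7 had fold enrichments of 1.38 to 3.45, and the weakest of them, at 272073 to 272312, sat at a −log10 q of 2.07, beside a lowest value of 2.02 in the list. Most of the 18 stood in 2 unbroken runs of unpartnered peaks, 10 peaks between 4961 and 144314 and 5 peaks between 161302 and 279266. The WT mt− list had no summit inside either run. The gap from an unpartnered peak to the nearest WT mt− peak of the sequence had a median of 22616.5 bp and reached 81390 bp, and 1 of the 18 lay within 500 bp of one.

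At the 8 places on mating_type_plus where both lists had a peak, width and rank did not always move together. At 3 of them the WT mt− peak ranked within 3 points above its partner. The first of these, at 1796 to 2236, was 441 bp wide in WT mt+ and 444 bp in WT mt−, with fold enrichments of 5.48 and 5.84 and ranks of 75.1 and 77.6. The second, at 149399 to 150248, was 850 and 621 bp wide, with enrichments of 5.37 and 7.95 and ranks of 86.9 and 89.1. The third, at 363990 to 364309, was weak in both, with enrichments of 2.34 and 2.31.

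At the other 5 the WT mt− peak was narrower and lower in its list. The widest contraction was at 361666 to 363085, where 1420 bp in WT mt+ stood against 279 bp in WT mt−, with ranks of 68.1 and 20.9. At 159878 to 160759 the widths were 882 and 241 bp and the ranks 30.4 and 17.9. At 353115 to 354602 they were 1488 and 505 bp, but the ranks were nearly equal at 54.4 and 53.3. The fold enrichment of this pair was 4.97 in WT mt+ and higher, at 6.10, in WT mt−. At 155269 to 156107 the widths were 839 and 409 bp and the ranks 83.8 and 34.3. At 144970 to 145710 they were 741 and 496 bp and the ranks 76.9 and 22.3.

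Of these 8 pairs 4 were at least 1.5-fold narrower in WT mt−, a shift seen in 0.524% of one-to-one pairs of all sequences. A like number, 4, ranked lower by at least 10 points (14.2% of pairs of all sequences). The WT mt− peak lay wholly within its partner at 6 of the 8. Over the sequence the WT mt+ peaks covered 18.7 kb and the WT mt− peaks 3.36 kb. Summits stayed close, with a median distance of 43.5 bp and a largest of 131 bp, and no pair reached 200 bp. Only the pairs at 1796, 149399 and 353115 stood above the median −log10 q of both lists. Their distances were 6, 10 and 131 bp, a median of 10 bp that includes the largest distance of the 8 pairs.

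**Figure D2:**
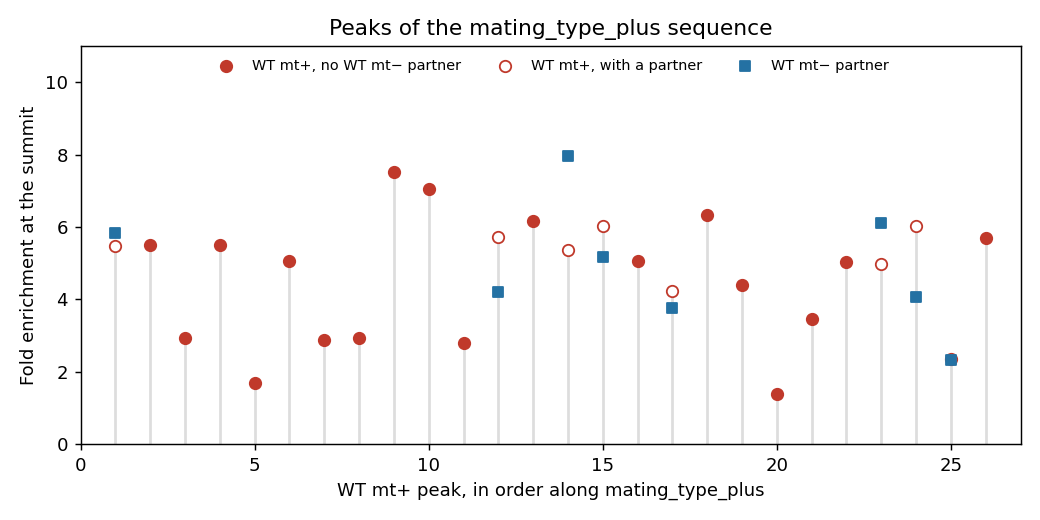
Authors' fold enrichment at the summit for the 26 WT mt+ peaks of mating_type_plus in their order along the sequence, with the WT mt− partner where there is one. Filled circles are the 18 peaks without a partner, open circles and squares are the 8 pairs, and the highest circle (7.51) belongs to an unpartnered peak.

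On chromosome 6 the unpartnered WT mt− peaks were concentrated near the left end. The first 1 Mb, a boundary chosen after the counts per bin were seen, held 70 of the 96, out of 208 WT mt− peaks there (33.7%, exact interval 27.3 to 40.5). Of the 70, 24 stood in 1 evenly spaced array described below, and the interval treats them as independent peaks. In the first 1 Mb the WT mt+ list had 147 peaks, of which 8 were unpartnered (5.44%, 2.38 to 10.4). In 102 other windows of 1 Mb tiled over the numbered chromosomes, unpartnered WT mt− peaks had a median of 2 per window. The highest of them, with 11, was also on chromosome 6, at 2 to 3 Mb. For WT mt+ the median of these windows was 1 and the highest 10, on chromosome 15 at 2 to 3 Mb. Beyond the first 1 Mb the chromosome had 26 of 1111 WT mt− peaks unpartnered (2.34%) and 16 of 1101 WT mt+ peaks (1.45%).

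Within the first 1 Mb the excess fell in all 4 bins of 250 kb. Unpartnered WT mt− peaks numbered 24 of 55 in the first bin, 15 of 47 in the second, 13 of 43 in the third and 18 of 63 in the fourth. The array described below, at 226905 to 258269, lay across the first and second bins and added to both counts. In the fifth bin there was 1 of 37. The WT mt+ list had 35, 34, 32 and 46 peaks in the first 4 bins and 37 in the fifth, so the lists met again in number at the 1 Mb mark.

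**Figure D3:**
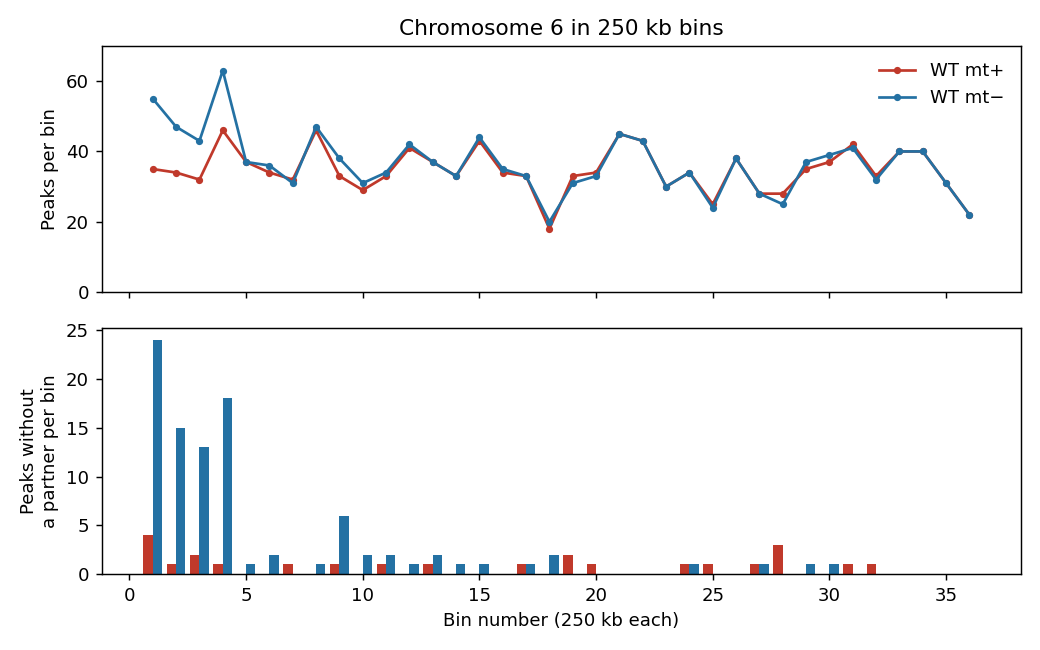
Chromosome 6 in bins of 250 kb, with the number of peaks per bin above and the number without a partner below, for WT mt+ (red) and WT mt− (blue). The curves separate in the first 4 bins, where 24, 15, 13 and 18 WT mt− peaks had no partner.

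Most of the unpartnered WT mt− peaks of chromosome 6 were weak, and a few were among the strongest of their list. Their median fold enrichment was 2.32, with quartiles of 2.02 and 2.78, and their median rank was 7.02. Of the 96, 67 lay in the lowest 10% of the list and 6 above its middle. The peak at 583122 to 584265 had a fold enrichment of 7.75 and a rank of 97.98, the highest of any unpartnered peak in either list, and the nearest WT mt+ peak was 218 bp away. The others of the first 10 by enrichment included 1312408 to 1313334 (6.89), 604484 to 605641 (6.65), 579561 to 581209 (6.24), 629366 to 630393 (5.90), 640069 to 641076 (5.49) and 715118 to 715909 (5.42). The last 3 were at 4414315 to 4414957 (4.91), 469798 to 470761 (4.83) and 473363 to 473885 (4.77). In all, 8 of these 10 lay between 469798 and 715909.

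A regular array made up a large part of the weak ones. Between 226905 and 258269 on chromosome 6 the WT mt− list had 26 peaks in 31.4 kb, of which 24 had no partner. Their summits were evenly spaced, with 24 of the 25 intervals between 1100 and 1300 bp and a median of 1200 bp. Over the whole WT mt− list the median interval between neighbouring summits was 5882 bp, and 4.48% of intervals fell in that range. The array's peaks were alike in size, with widths of 283 to 538 bp and fold enrichments of 1.93 to 3.23. The WT mt+ list had 2 peaks in the array, with enrichments of 2.64 and 2.13, and both had a WT mt− partner. Their ranks, 28.8 and 18.5, stood above the ranks of 3.55 to 16.1 of the WT mt− array peaks. The longest run of unpartnered peaks in either list, 20 WT mt− peaks from 233993 to 258269, was the right-hand part of this array. The dnmt1 lists, which the partner rule did not use, had 26 peaks (mt−) and 2 peaks (mt+) in the same stretch.

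Other runs on the chromosome were shorter. A run of 6 WT mt− peaks spanned 469798 to 481074, with fold enrichments of 1.91 to 4.83. A run of 4 spanned 625190 to 642784 and reached 5.90. Farther along, 4 weak peaks lay between 2012549 and 2019014, with enrichments of 1.86 to 2.30. A run of 3 at 772474 to 775137 had summits 1097 and 1199 bp apart.

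The 24 unpartnered WT mt+ peaks of chromosome 6 were mostly weak, with a median fold enrichment of 2.49 and none above the middle of the list. The strongest were at 7704000 to 7704882 (5.45) and 6835929 to 6836459 (5.34), the latter 175 bp from a WT mt− peak. Both also had a peak in each dnmt1 list. In the first 1 Mb the strongest was at 207876 to 208251 (3.87), and 3 neighbours between 80056 and 82211 (2.61 to 3.11) formed the single run. None of these 4 had a dnmt1 mt− peak, and each had a dnmt1 mt+ peak.

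Outside chromosome 6 and mating_type_plus the unpartnered peaks were narrow and low in rank in both directions. Their median width was 275 bp in WT mt+ and 289 bp in WT mt−, beside 820 and 832 bp for partnered peaks of the same sequences. Median fold enrichments were 2.197 and 2.003, beside 5.69 and 5.43. Median −log10 q was 8.03 and 6.82, beside 83.5 and 86.3, and the lowest values in the 2 lists were 2.02 and 2.09. In the lowest 10% of the list lay 185 of the 209 WT mt+ peaks and 211 of the 229 WT mt− peaks. Even there most peaks had a partner, since 13.7% of the WT mt+ peaks and 16.1% of the WT mt− peaks of the lowest 10% were unpartnered. When the counted list was limited to a −log10 q of 10 or more and the other list left whole, 79 WT mt+ peaks and 48 WT mt− peaks were unpartnered. With the same minimum in both lists there were 195 and 245, and with lists of equal length 238 and 194, so the list with more of them was not the same in these settings.

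The strongest exceptions were few. The WT mt− peak at 107439 to 108265 of chromosome 7 (fold enrichment 6.42, rank 65.7) was the single one above the middle of either list. It was followed by 1996961 to 1997552 of chromosome 15 (5.003) and 1186777 to 1187121 of chromosome 17 (4.98). The strongest WT mt+ peak lay at 1464609 to 1465412 of chromosome 4 (6.32, rank 48.2), and each dnmt1 list had a peak there (5.36 in mt+ and 6.21 in mt−). After it came a peak of 277 bp on chromosome 11 (147841 to 148117, enrichment 4.82). Chromosome 7 had one at 4863436 to 4863984 (4.67) and one at 4956504 to 4957085 (4.48), and chromosome 3 one at 3413197 to 3413642 (4.59). The remaining 5 of the first 10 ran from 3.66 to 4.05 in WT mt+. The remaining 7 ran from 3.003 to 3.40 in WT mt−.

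Among the 7 were 3 peaks of similar shape near the left end of chromosome 15. They lay at 22190 to 23382, 47897 to 49066 and 60730 to 61940, with widths of 1193, 1170 and 1211 bp and fold enrichments of 3.26, 3.04 and 3.05. Each was 3869 to 3900 bp from the nearest WT mt+ peak. Each had a peak in dnmt1 mt+ and none in dnmt1 mt−, so the strain that had the peak differed between the genotypes.

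Chromosome 15 had the highest shares of unpartnered peaks among the 16 numbered chromosomes other than 6, at 24 of 550 (4.36%) in WT mt+ and 28 of 556 (5.04%) in WT mt−. The medians of the 16 were 1.495% and 1.53%. The lowest were chromosome 10 in WT mt+ (0.662%) and chromosome 11 in WT mt− (0.735%). Contigs added 5 unpartnered WT mt+ peaks of 134 and 2 WT mt− peaks of 130. On chromosome 1 unpartnered peaks of both lists alternated, with 4 of WT mt− between 5862971 and 5872711 and 4 of WT mt+ between 5866582 and 5873638. The enrichments there were 1.94 to 2.36.

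The dnmt1 libraries of the same strains showed which unpartnered peaks recurred. On mating_type_plus 15 of the 18 had a peak in dnmt1 mt+ (83.3%, exact interval 58.6 to 96.4), and 0 had one in dnmt1 mt−. In the first 1 Mb of chromosome 6, 62 of the 70 unpartnered WT mt− peaks had a dnmt1 mt− peak (88.6%, 78.7 to 94.9) and 1 had a dnmt1 mt+ peak. Of these 70, 24 stood in the array, and the interval counts each of them as independent. In the rest of chromosome 6, 15 of 26 had a dnmt1 mt− peak and 8 a dnmt1 mt+ peak. On all other sequences recurrence was lower and did not follow the strain evenly. Of the 229 unpartnered WT mt− peaks, 114 had a peak in dnmt1 mt− (49.8%, 43.1 to 56.4) and 74 in dnmt1 mt+ (32.3%, 26.3 to 38.8). Of the 209 unpartnered WT mt+ peaks, 78 had a peak in dnmt1 mt+ (37.3%, 30.7 to 44.3) and 125 in dnmt1 mt− (59.8%, 52.8 to 66.5). Over all sequences 42.2% of unpartnered WT mt+ peaks had a dnmt1 mt+ peak and 53.8% a dnmt1 mt− peak. For those with a −log10 q of 10 or more the pooled order turned, to 62.4% and 55.05%. The pool includes mating_type_plus, where 16 such peaks remained and 0 of the 18 had a dnmt1 mt− peak. The turn therefore does not describe all other sequences, for which shares at that minimum are not given here. Of the peaks with a WT partner, 98.6% of WT mt+ and 99.5% of WT mt− had a peak in the dnmt1 list of their own strain. The dnmt1 mt− list was the longest of the series, with 15323 peaks beside 14986 of dnmt1 mt+, and the part of list length in this was not tested.

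**Figure D4:**
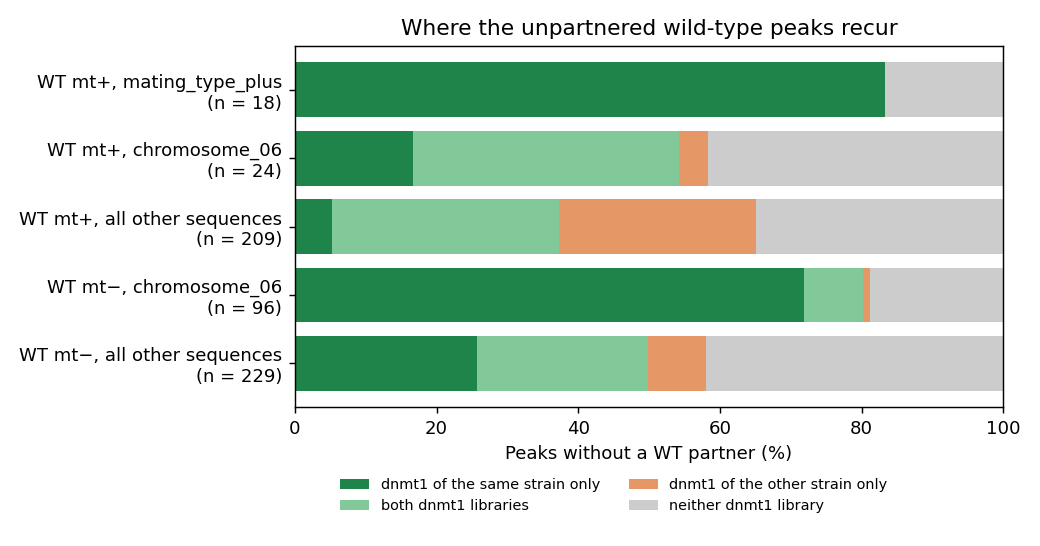
Share of unpartnered wild-type peaks (%) that overlap a peak of the dnmt1 library of the same strain, of both dnmt1 libraries, of the other strain, or of neither, by list and sequence class. The segments for the same strain alone show 15 of 18 for WT mt+ on mating_type_plus and 69 of 96 for WT mt− on chromosome 6, and for WT mt+ on all other sequences 11 of 209.

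Most peaks had exactly 1 partner in each direction, and these pairs carry the shifts in shape. There were 14505 such one-to-one pairs, 8 on mating_type_plus, 1211 on chromosome 6 and 13286 on all other sequences. A further 77 WT mt+ peaks spanned several WT mt− peaks and 81 WT mt− peaks spanned several WT mt+ peaks, and these and their partners were left out of the shifts. On all other sequences the pairs were alike. The median width was 820 bp in WT mt+ and 832 bp in WT mt−, and the median log2 ratio of widths, WT mt− over WT mt+, was 0.01 with quartiles of -0.05 and 0.08. WT mt− peaks were wider in 7357 pairs and narrower in 5837. A difference of at least 1.5-fold was found in 168 pairs (1.26%, beside 1.41% over all sequences), 106 wider in WT mt− (over all sequences 0.889% of pairs were) and 62 narrower.

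Chromosome 6 differed from this mostly in its first 1 Mb. Over the chromosome the median log2 width ratio was 0.01, as elsewhere, and 33 of 1211 pairs (2.73%) changed by at least 1.5-fold. In the first 1 Mb it was 18 of 137 pairs (13.1%), 14 of them wider in WT mt−, with a median log2 ratio of 0.07 and an SD of 0.40 over pairs. In the rest of the chromosome it was 15 of 1074 (1.40%), with an SD of 0.17, beside an SD of 0.16 on all other sequences. Within this rest, 9 of the 15 lay at 1 to 2 Mb, out of 146 pairs there (6.16%, SD 0.28). Among the 102 other windows of 1 Mb the highest share was 6.45%, on chromosome 15 at 4 to 5 Mb, where there were 31 pairs. The highest SD among them, 0.39, came near that of the first 1 Mb, on chromosome 15 at 3 to 4 Mb with 53 pairs.

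The pairs of chromosome 6 that widened most in WT mt− lay in or next to that stretch. At 606476 to 606714 a WT mt+ peak of 239 bp met a WT mt− peak of 757 bp, a log2 ratio of 1.66. At 464762 to 465081 the widths were 320 and 949 bp, at 221489 to 221706 they were 218 and 553 bp, at 1091328 to 1091592 they were 265 and 645 bp, and at 455558 to 455809 they were 252 and 568 bp. The last of these also rose from rank 7.19 to rank 39.0. The 5 pairs that narrowed most were spread along the chromosome. They included 1970992 to 1971460, from 469 to 242 bp with a log2 ratio of -0.95, and 67816 to 68888, from 1073 to 634 bp with -0.76.

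Width shifts outside chromosome 6 had a few large exceptions. At chromosome 15, 3041376 to 3041588, a WT mt+ peak of 213 bp with a fold enrichment of 1.87 met a WT mt− peak of 1350 bp with 5.56, a log2 ratio of 2.66 and a rise from rank 0.514 to rank 47.8. Next came a pair on chromosome 10 that was weak in both lists (6259908 to 6260118, 211 and 789 bp) and another on chromosome 15 (141817 to 142220, 404 and 1215 bp). In the opposite direction, chromosome 3, 8883862 to 8884700, went from 839 bp in WT mt+ to 275 bp in WT mt−. At chromosome 4, 1198705 to 1199513, the width went from 809 to 321 bp, the fold enrichment from 7.76 to 2.01 and the rank from 81.8 to 1.87, the largest fall in rank of any pair.

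Partner summits lay close together. On all other sequences the median distance between partner summits was 33 bp, 8658 of 13286 pairs were within 50 bp, and 581 (4.37%, beside 4.36% over all sequences) were at least 200 bp apart. On chromosome 6 the median was 35 bp, and 52 of 1211 pairs (4.29%) were at least 200 bp apart. The first 1 Mb again stood higher, with a median of 51 bp and 14 of 137 pairs (10.2%), but another window came near it, with 9.90% on chromosome 8 at 2 to 3 Mb. Summits moved to the right in 6612 pairs of all other sequences and to the left in 6531.

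Several of the largest summit shifts were found in broad peaks of nearly equal width in both lists. At chromosome 15, 2691783 to 2694791, the summits were 2013 bp apart while the widths were 3009 and 2962 bp. At chromosome 8, 2202941 to 2207038, they were 1785 bp apart with widths of 4098 and 4096 bp. On chromosome 6 the largest was 857 bp, at 2854051 to 2855827, with widths of 1777 and 1704 bp, but the pair at 210546 to 211385, with summits 617 bp apart, was 840 bp wide in WT mt+ and 1586 bp in WT mt−. On all other sequences the share of pairs with summits at least 200 bp apart was 1.11% where the mean width was below 634 bp and 11.3% where it was above 1067.5 bp.

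The order of strength within the lists moved in many pairs. On all other sequences the rank moved by a median of 5.88 points, and 3929 of 13286 pairs (29.6%, beside 29.5% over all sequences) moved by at least 10 points, 2045 up and 1884 down in WT mt− (over all sequences 15.2% went up). Chromosome 6 had a median of 5.69 points and 341 of 1211 pairs (28.2%), with 166 up and 175 down, and its first 1 Mb had 43 of 137 (31.4%). The −log10 q of partners was correlated across pairs (Spearman rho 0.927 over 13286 pairs and 0.928 over the 1211 of chromosome 6). The points are sites of 2 libraries called against the same genome, so this is a description. The movement on all other sequences was largest at a mean rank of 50 to 75, with medians of 3.17 points at a mean rank below 25, 6.56 at 25 to 50, 9.497 at 50 to 75 and 6.06 above 75. Weak pairs differed more in width than strong ones, with a median absolute log2 width ratio of 0.13 at a mean rank below 25 and 0.05 above 75.

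**Figure D5:**
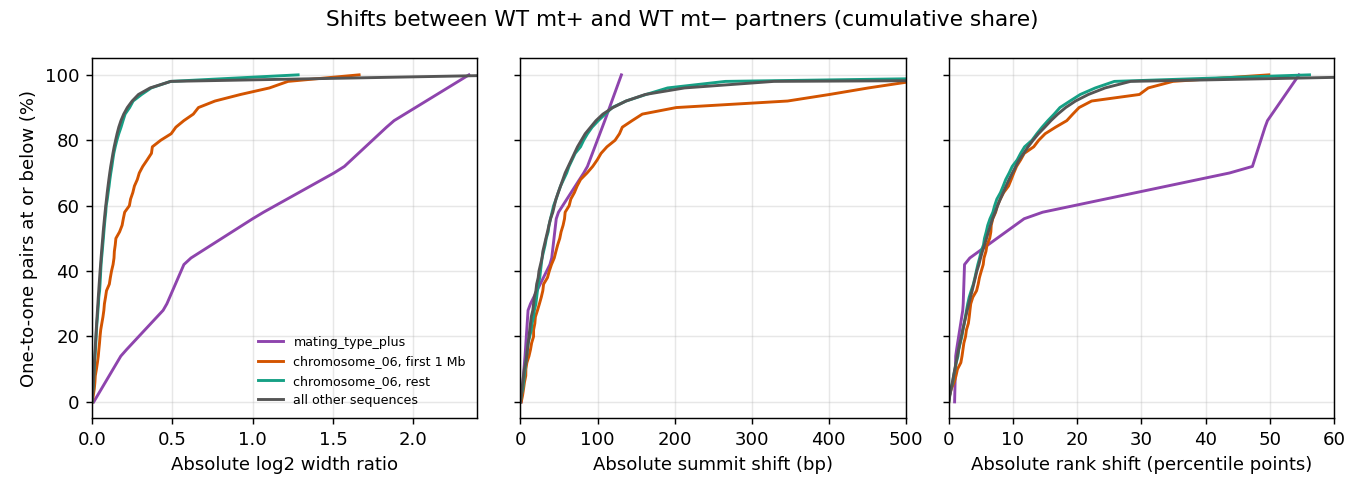
Cumulative share of one-to-one pairs (%) at or below a given absolute log2 width ratio, summit distance (bp) and rank shift (percentile points), for mating_type_plus (8 pairs, interpolated), the first 1 Mb of chromosome 6 (137), its rest (1074) and all other sequences (13286). The rest of chromosome 6, taken as a whole, runs along all other sequences, while the first 1 Mb lies to the right in width.

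Individual rank shifts were large on ordinary chromosomes too. The largest rise in WT mt− was at chromosome 1, 6365454 to 6366156, from rank 41.6 with a fold enrichment of 4.17 to rank 93.1 with 7.90, at almost equal widths of 703 and 752 bp. It was followed by a pair on chromosome 17 (2534814 to 2535651, from 41.3 to 90.02) and, after the chromosome 15 pair above, one on chromosome 2 (3040562 to 3041664, from 36.98 to 82.9). After the chromosome 4 pair above, the largest falls were at chromosome 14, 1676430 to 1677398 (65.4 to 7.23) and chromosome 16, 1700713 to 1701365 (69.98 to 17.9). On chromosome 6 the largest rise was at 6780073 to 6781082 (45.4 to 82.7). The largest falls there were at 7603824 to 7604490 (75.8 to 19.6), 67816 to 68888 (64.7 to 14.9) and 454395 to 455064 (75.3 to 31.0).

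Set beside the comparisons of WT with dnmt1 within a strain, which share a WT library with this one, the shifts on all other sequences were close in size. The median summit distance was 33 bp between the mating types, 33 bp between WT and dnmt1 in mt+ and 34 bp in mt−. Median rank shifts were 5.88, 6.05 and 6.17 points, and width changes of at least 1.5-fold were found in 1.26%, 1.62% and 1.66% of pairs. On mating_type_plus the comparisons differed in size. Between WT mt+ and dnmt1 mt+ there were 22 one-to-one pairs with a median log2 width ratio of -0.01, and between WT mt− and dnmt1 mt− there were 8 with -0.03, whereas between the WT mating types the median over 8 pairs was -0.81. Its order-statistic 95% interval, -2.35 to 0.18, is the full range of the 8 pairs and included 0. The median was -0.45 over the pairs at 1796, 149399 and 353115, the only ones above the median −log10 q of both lists. Between the dnmt1 mating types, which share no library with the WT pair, it was -1.11 over 7 pairs. On chromosome 6 the dnmt1 mating types had 112 unpartnered mt− peaks of 1331 (8.41%) and 10 unpartnered mt+ peaks of 1234 (0.810%), beside 2.87% and 0.721% on all other sequences. These differences were not tested.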

How the data were processed

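Each library has its own deposited narrowPeak list, and no list pools libraries. The submitters' processing notes name MACS2 2.2.7.1 besides Bowtie2 2.4.2, Trim Galore 0.6.7, deepTools 3.5.1 and Picard. Options and build were not given in the sources used here. Per the labels, the input served an H3K4me1 data set as well. The authors deposited for each peak a score, a fold enrichment ratio, −log10 of a p-value and of a q-value, and the summit. They depend on depth, which the lists do not give, so they were used within a list. A gene table of assembly v5.5 was at hand, but 12 of the 17 chromosomes had WT peaks beyond its last gene, by up to 3905 kb, so it was not used. For that reason the list of mating locus genes set in the design was not examined.

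Coordinates are those of the lists, counted from 1. Regions of pairs are given by the WT mt+ peak. Peaks were partners at an overlap of at least 1 bp. Shares carry exact 95% Clopper-Pearson intervals, which treat peaks as independent and cover counting error only. Named are every unpartnered peak and pair of mating_type_plus, the 10 unpartnered peaks per list and class with the highest fold enrichment, the 5 pairs per class and direction with the largest shifts, and the 5 longest runs of at least 3 unpartnered peaks, of which the text gives the leading ones. The members, classes and rules were chosen with earlier results of these data known. The array and its spacing range, the first 1 Mb of chromosome 6, and the chromosome 15 peaks of similar shape were singled out after their values were seen. Alternatives changed the overlap, the −log10 q minimum, the list length, the sequences, the peaks used and the value ranked. The code that counts partners was checked on simulated data, the WT mt+ list with 200 peaks removed and 200 added, and 200 and 200 were found. The added peaks were placed in wide gaps, so this checks the code and not the calls between 2 libraries. Python 3.11.15 was used with matplotlib 3.10.9, scipy 1.17.1, pandas 2.3.3 and numpy 2.4.6.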

Additional observations from a re-analysis of the deposited data

How the results depend on the processing

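No paired analysis was possible because each group has 1 library, no replicate numbers are given and no result comes from a test. Alternatives gave 87 values over 19 results. Of these 63 moved by at most 1.5 times for counts or stayed inside the interval of the main value for medians and shares, and the other 24 follow, with no change of sign. All values passed in this way when at least 50% of the shorter peak had to be covered, when a peak within 500 bp was a partner, for lists of equal length, for numbered chromosomes only and for ranks among partners. Summits within 200 bp raised unpartnered WT mt+ and WT mt− peaks to 81 and 152 on chromosome 6 and to 869 and 890 on all other sequences. Asking both lists for a −log10 q of 10 or more gave 37 unpartnered WT mt+ peaks on chromosome 6 and a median rank shift of 6.10 points on all other sequences. The same minimum in the counted list alone gave 14 and 62 on chromosome 6 and 79 and 48 elsewhere. Pairs above both medians gave a median log2 width ratio of 0.0094 on all other sequences, where it was 0.0126, and median rank shifts of 6.14 points on chromosome 6 and 6.77 elsewhere. Ranking by fold enrichment gave 8.245 and 8.595 points. With that −log10 q asked of the unpartnered peaks alone, 62.4% of those of WT mt+ had a dnmt1 mt+ peak (42.2% without it). Of those of WT mt−, 31.8% had a dnmt1 mt+ peak (25.5%) and 72.7% a dnmt1 mt− peak (58.8%). A further pair of alternatives was chosen after seeing the data. Leaving out the first 1 Mb, chromosome 6 had 26 unpartnered WT mt− peaks and 16 of WT mt+ (24 with it, 1.5 times). Above the list's median −log10 q, WT mt+ had 6 on mating_type_plus, 0 on chromosome 6 and 0 elsewhere, and WT mt− had 6 on chromosome 6 and 1 elsewhere. On mating_type_plus the intervals of the 8 pairs are their full ranges (-2.35 to 0.18 for the log2 width ratio, 1 to 131 bp for the summit and 0.908 to 54.6 points for the rank). A median over these pairs or some of them was bound to stay inside. Such values count among the 63 but do not show that the results on mating_type_plus held. Pairs above both medians, which were only those at 1796, 149399 and 353115, gave -0.45, 10 bp and 2.22 points on mating_type_plus. Ranking by fold enrichment gave 18.5 points there.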

Other observations

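Peaks that overlapped 3 or more peaks of the other list were found in WT mt+ alone, and 3 of these 4 lay on chromosome 15 within 2646205 to 2750898. The WT mt+ peak at 2646205 to 2652489, 6285 bp wide with a fold enrichment of 6.71, covered 4 WT mt− peaks of 640 to 1760 bp, with enrichments of 3.29 to 6.66 and a summed width of 5683 bp. At 2712034 to 2715528 a WT mt+ peak of 3495 bp met 3 WT mt− peaks, the widest of 4489 bp, and at 2747538 to 2750898 one of 3361 bp met 3 of 350 to 1718 bp. The other, on chromosome 3 at 5291974 to 5296197, was 4224 bp wide and met 3 of 868 to 1565 bp. The widest one-to-one pair lay in the same part of chromosome 15, with 14594 bp in WT mt+ at 2660293 to 2674886 and 14599 bp in WT mt−. Its summits were 14 bp apart, and its ranks were 91.9 and 95.7.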
